A study of Komagataella phaffii GS115 with 6 samples.

Results

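Of 115 listed genes of the methylotrophic yeast Komagataella phaffii, 7 were examined here: 4 enzymes of thiamine synthesis, 2 transporters annotated for vitamin B6 and for the thiamine pathway, and 1 gene with no annotated function that lies next to one of the enzymes. They were chosen by their higher transcript levels in medium with maltose and by their annotation, so the difference between media is given below as a description and not as a test. All 7 are single rows of the deposited table, found by locus tag. The annotation places 5 of them plainly in thiamine synthesis or vitamin B6 uptake, and leaves THI73 less certain and PAS_chr4_0064 without a role. The submitted KEGG annotation places THI5 (PAS_chr4_0065), THI4 (PAS_chr3_0648), THI20 (PAS_chr3_0842) and thi4 (PAS_chr3_0843) under thiamine metabolism, and they are the only 4 of the 115 genes there. TPN1 (PAS_chr1-3_0153) is annotated as a plasma membrane transporter of pyridoxine, a form of vitamin B6. THI73 (PAS_chr1-1_0284) matches a thiamine pathway transporter of Saccharomyces cerevisiae, while its own product line names a putative permease for carboxylic acids. PAS_chr4_0064 is listed as a hypothetical protein with no domain.

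The cells were strain GS115, labelled WT, sampled at 48 h. The control group was grown in BMMY, a complex buffered medium that supplies methanol as the carbon source. The other group was grown in the same medium with 1% maltose. Each group had 3 RNA-seq libraries, and the labels do not say whether these came from separate cultures, so any spread between them may be technical. The labels do not state whether these cells carried a construct for the recombinant collagen that the series is about.

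Thiamine is built from a pyrimidine part and a thiazole part, made on separate branches and then joined. In Saccharomyces cerevisiae, Thi5 makes the pyrimidine part from pyridoxal phosphate and histidine, and Thi4 makes the thiazole part from NAD, glycine and a sulfur atom taken from the enzyme itself. Both proteins are used up in the reaction they carry out. Pyridoxal phosphate is the active form of vitamin B6, which Tpn1 carries into the cell in its free form. The finished cofactor, thiamine diphosphate, serves pyruvate decarboxylase, transketolase and, in methylotrophic yeasts, the dihydroxyacetone synthase that captures formaldehyde derived from methanol.

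Library depths, computed from the counts, the gene lengths and FPKM (fragments per kilobase of gene, scaled to the fragments in the library), ran from 35.3 to 76.1 M fragments. The lowest count of any of the 7 genes in a library was 1481, where counting error is 2.6%. Counting error was therefore small beside the spread between libraries. All 115 genes had been selected as changed by the authors on these same libraries. BMMY replicate 1 lay above the other BMMY libraries for 6 of the 7 genes, and for 41 of the 49 other listed genes with higher means in maltose.

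THI5, the enzyme of the pyrimidine branch, was the most abundant of the 7 transcripts in every library. Its level was 10027, 7774 and 6055 FPKM in BMMY replicates 1, 2 and 3, and 30033, 31667 and 36225 FPKM with maltose. All maltose libraries lay above all BMMY libraries, and the lowest maltose value was 3.0-fold the highest BMMY value. The fitted log2 fold change, maltose over BMMY, was 2.04 (SE 0.21), or 4.10-fold. Among the 115 listed genes THI5 ranked 3rd or 4th by FPKM in BMMY and 2nd in each maltose library. Counts of THI5 took 0.619% to 1.03% of the implied depth in BMMY and 3.07% to 3.71% with maltose.

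THI4, the thiazole synthase, was the next most abundant of the 7 but differed less between the media. It was at 6117, 5115 and 4287 FPKM in BMMY replicates 1, 2 and 3, and at 10832, 11291 and 9770 FPKM with maltose. The groups did not overlap, and the lowest maltose value was 1.60-fold the highest BMMY value. The log2 fold change was 1.04 (SE 0.17).

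THI20 and thi4 were both far less abundant than THI5 and THI4. THI20 phosphorylates the pyrimidine part and also carries a thiaminase domain. Its level was 245, 124 and 116 FPKM in BMMY replicates 1, 2 and 3, and 269, 287 and 380 FPKM with maltose. BMMY replicate 1 came close to the maltose group, with the lowest maltose library only 1.10-fold above it. The log2 fold change was 0.95 (SE 0.32).

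The gene annotated thi4 is not a second thiazole synthase. It takes its symbol from Schizosaccharomyces pombe, where thi4 is a bifunctional enzyme that phosphorylates the thiazole part and joins it to the pyrimidine part, as THI6 does in Saccharomyces cerevisiae. In BMMY replicates 1, 2 and 3 it had 321, 216 and 204 FPKM. With maltose it had 481, 491 and 498 FPKM. The maltose libraries were close together, with a coefficient of variation of 1.74% against 26.0% in BMMY. The groups did not overlap, and the log2 fold change was 0.99 (SE 0.22).

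Of the genes examined, the transporters had the lowest FPKM in every library. Both were higher in BMMY replicate 1 than in the other BMMY libraries. TPN1 was at 83.9, 37.2 and 32.7 FPKM in BMMY replicates 1, 2 and 3, and at 233, 198 and 205 FPKM with maltose. Every maltose library exceeded BMMY replicate 1 by at least 2.36-fold, and the log2 fold change was 2.05 (SE 0.37). Without BMMY replicate 1 it was 2.60, or 6.07-fold.

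THI73 had 45.4, 20.0 and 18.6 FPKM in BMMY replicates 1, 2 and 3, the lowest levels of the 7 genes. With maltose it had 53.0, 58.9 and 86.4 FPKM. The groups were separated only narrowly, by 1.17-fold between maltose replicate 1 and BMMY replicate 1. The log2 fold change was 1.24 (SE 0.38), and 1.77 without BMMY replicate 1.

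PAS_chr4_0064, the neighbour of THI5, was at 1566, 1580 and 1249 FPKM in BMMY replicates 1, 2 and 3, and at 6792, 6834 and 5555 FPKM with maltose. BMMY replicate 1 did not stand apart for this gene, and the lowest maltose value was 3.52-fold the highest BMMY value. The log2 fold change was 2.13 (SE 0.18), or 4.36-fold. In the authors' deposited table its log2 fold change was 2.50, the 2nd highest of 56 positive values, followed by TPN1 with 2.42 and THI5 with 2.40.

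**Figure D1:**
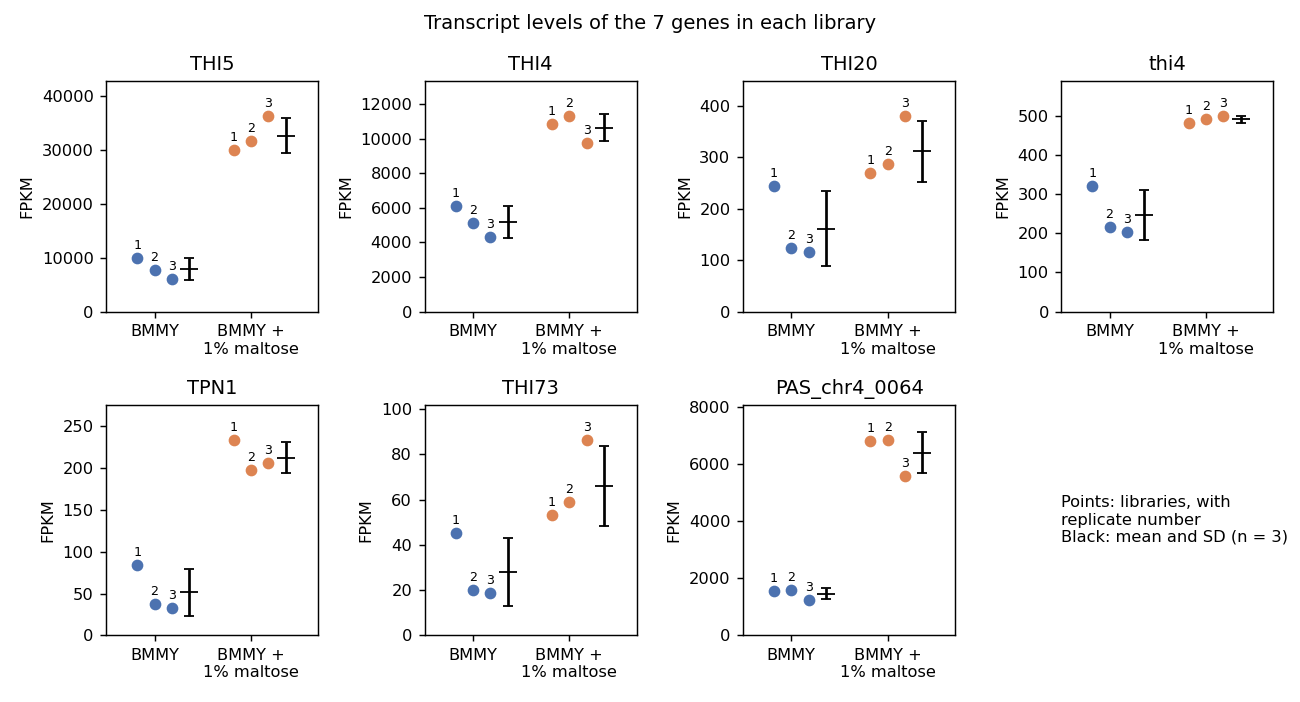
FPKM (linear axis from 0) of the 7 genes in the 3 BMMY and 3 maltose libraries, with replicate numbers beside the points and the mean and SD (n = 3) in black. All 7 genes have every maltose library above every BMMY library, with BMMY replicate 1 nearest for THI20 (245 against 269 FPKM) and THI73 (45.4 against 53.0 FPKM).

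In edgeR's quasi-likelihood fit over all 112 genes whose mean was at least 1 FPKM, 7 of 7 genes were called higher, where 43.8% of the genes tested were called higher at an adjusted p of 0.05. The groups did not overlap for 7 of 7, against 44.6% of genes tested with all maltose libraries above all BMMY libraries. These counts follow from the choice of the genes and nothing is read from them. The median log2 fold change of the 7 genes was 1.24, beside -0.35 over all 112 genes and 0.75 over the 49 others with positive values. The calls were 7 of 7 without BMMY replicate 1, without maltose replicate 1 and without maltose replicate 2. THI20 was not called with either BMMY replicate 2 (log2 0.79) or 3 (0.76) left out, or with maltose replicate 3 left out (0.79), nor THI73 with BMMY replicate 2 (1.05) or maltose replicate 3 (1.00) left out.

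By the size of the difference in the fit with implied depths and all libraries, the genes fell into a higher and a lower range. PAS_chr4_0064, TPN1 and THI5 were between 2.04 and 2.13 on the log2 scale, and THI20, thi4, THI4 and THI73 between 0.95 and 1.24. Within each range neighbouring values differed by less than the larger of their standard errors, so no order is drawn among them. The gap between the ranges was not tested. The sizes depend on how libraries are scaled to each other. The 7 log2 fold changes ran from 1.31 to 2.50 with the scaling behind the authors' fold changes, from 1.74 to 2.99 with equal medians, from 0.52 to 1.64 with TMM factors over the listed genes, and from 0.15 to 1.26 with equal FPKM sums. The median shift of a gene under these scalings, over all genes tested, was 0.36, 0.84, -0.49 and -0.86 on the log2 scale. Calls over all genes, 49 higher and 56 lower with implied depths, became 56 and 56, 56 and 50, 13 and 56, and 7 and 56. No scaling gave any of the 7 genes a negative value, but with equal FPKM sums only PAS_chr4_0064, THI5 and TPN1 were called. With equal medians, each library was scaled by the median ratio of its counts to each gene's geometric mean over the libraries. Equal medians, TMM factors and equal FPKM sums were computed over listed genes alone, all of which had been selected as changed. The 7 took 17.9% to 20.2% of listed counts in BMMY and 32.8% to 35.0% with maltose. Equal FPKM sums over listed genes thus take out part of any rise of the 7. A call lost there is not read as a lack of difference.

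**Figure D2:**
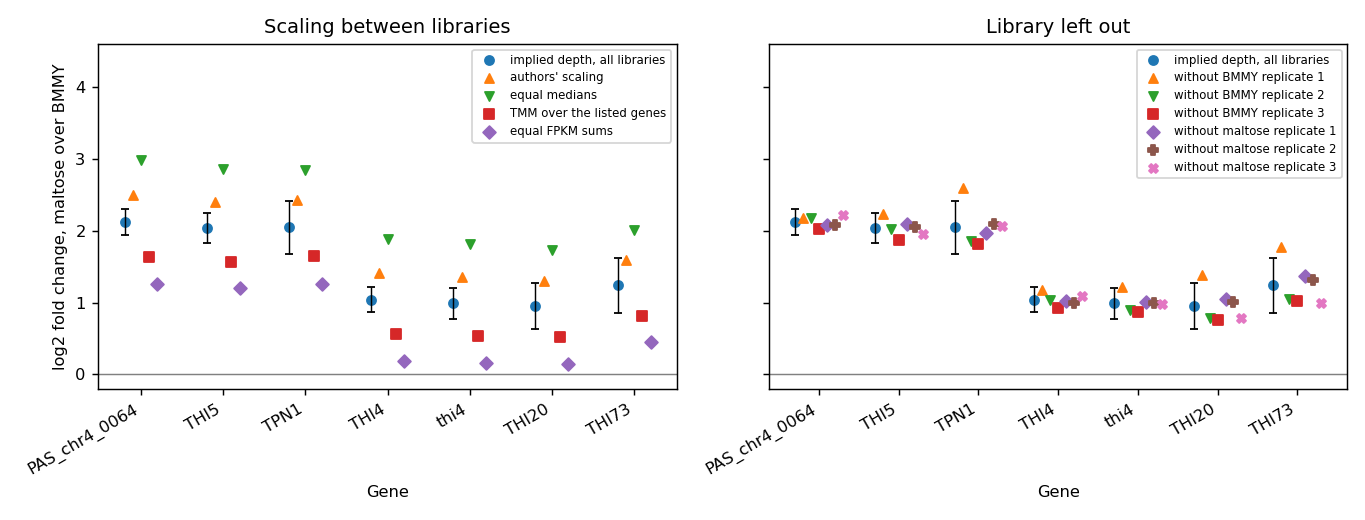
Log2 fold change, maltose over BMMY, of the 7 genes under 5 scalings between libraries (left) and with each library left out (right). Bars are the standard error of the fit with implied depths and all 6 libraries. Every point is above 0, from 0.15 (THI20 with equal FPKM sums) to 2.99 (PAS_chr4_0064 with equal medians).

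Ratios between these genes within a library do not depend on that scaling. THI5 had 1.64, 1.52 and 1.41 times the FPKM of THI4 in BMMY replicates 1, 2 and 3, and 2.77, 2.80 and 3.71 times with maltose. The transcript levels of the pyrimidine and thiazole enzymes were thus nearer to each other in BMMY, and the groups did not overlap. THI5 over THI20 also separated the media, with 52.1 ± 10.9 (SD, n = 3) in BMMY and 106 ± 8.99 with maltose. For the transporters, TPN1 over THI73 was 1.85, 1.86 and 1.75 in BMMY and 4.40, 3.36 and 2.38 with maltose.

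The other ratios computed overlapped between the media. Ratios were computed for some pairs of these genes only, so other pairs may separate the media too. THI4 over thi4 was 21.3 ± 2.31 in BMMY and 21.7 ± 1.84 with maltose, so the difference between media was smaller than the spread between libraries. THI20 over thi4 was 0.635 ± 0.112 in BMMY and 0.636 ± 0.110 with maltose. In that ratio BMMY replicate 1 (0.763) and maltose replicate 3 (0.762) stood above the other libraries, which lay between 0.56 and 0.585. THI5 over PAS_chr4_0064 showed the same libraries apart, with 6.40 in BMMY replicate 1 and 6.52 in maltose replicate 3 against 4.42 to 4.92 in the others. THI5 over TPN1 was 171 ± 46.4 in BMMY and 155 ± 24.2 with maltose.

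**Figure D3:**
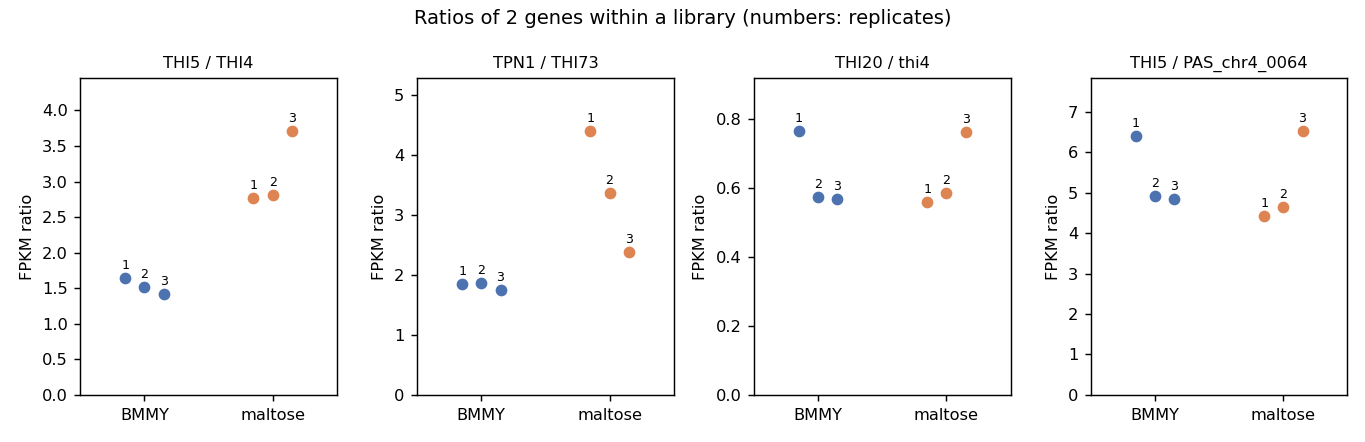
FPKM ratios (linear axis from 0) of genes measured in the same library, by medium, with replicate numbers beside the points. THI5 / THI4 and TPN1 / THI73 separate the media, whereas THI20 / thi4 and THI5 / PAS_chr4_0064 overlap and are highest in BMMY replicate 1 and maltose replicate 3.

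The 7 genes therefore differed among themselves in how single libraries stood. BMMY replicate 1 exceeded the mean of BMMY replicates 2 and 3 by 2.40-fold for TPN1, 2.35-fold for THI73 and 2.05-fold for THI20. For thi4, THI5 and THI4 that factor was 1.53, 1.45 and 1.30, and for PAS_chr4_0064 it was 1.11. The median over the 7 was 1.53, the same to 2 decimals as over the 49 other listed genes with higher means in maltose. Maltose replicate 3, set against the mean of maltose replicates 1 and 2, was 1.54-fold higher for THI73, 1.37-fold for THI20 and 1.17-fold for THI5. For thi4 and TPN1 the factor was 1.03 and 0.953, and for THI4 and PAS_chr4_0064 it was 0.883 and 0.815. THI20 and THI73 were thus high in both libraries, while PAS_chr4_0064 was lowest of the maltose libraries in replicate 3. What set those libraries apart was not tested.

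**Figure D4:**
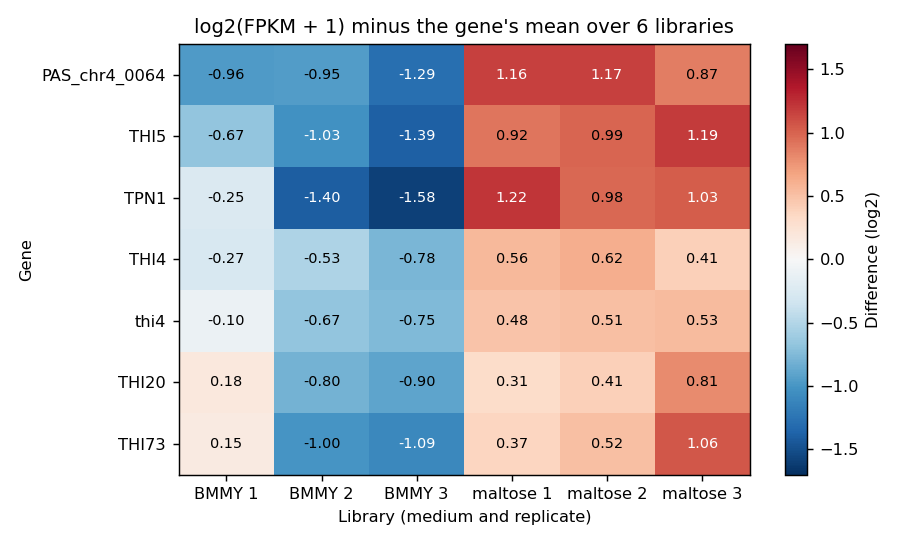
Log2(FPKM + 1) of each gene minus its own mean over the 6 libraries, with the value in each cell. THI20 (0.18) and THI73 (0.15) are above their mean in BMMY replicate 1, while PAS_chr4_0064 is at -0.96 there.

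Taking the whole profile over 6 libraries, THI73 lay nearest to THI20 of all listed genes, with a root mean square difference of 0.16 on the log2 scale after centring, where the median over all other listed genes was 1.07. RIB3 (PAS_chr3_0167), a riboflavin synthesis enzyme, was the nearest gene to THI20 (0.07) and 2nd nearest to THI73 (0.19). TEF4 (PAS_chr3_1071), a subunit of a translation elongation factor, was 2nd nearest to THI20 (0.10). THI4 and thi4 shared the nearest gene, PAS_chr4_0687, a hypothetical protein with means of 340 and 682 FPKM in BMMY and maltose, at 0.04 and 0.09. The 2nd nearest were hob3 (PAS_chr3_0833, an amphiphysin-like protein) to THI4 at 0.09 and the unnamed PAS_chr3_1219 to thi4 at 0.09.

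THI5 and PAS_chr4_0064 had a common nearest gene in PAS_chr4_0058, another hypothetical protein, at 0.19 and 0.20. They were 2nd nearest to each other, at 0.22. PAS_chr4_0058 had 114 FPKM in BMMY and 530 FPKM with maltose, and was also 2nd nearest to TPN1 (0.23), after the unnamed PAS_chr4_0962 (0.22). All profiles share the same 6 libraries and the genes had been selected for a difference between media, so likeness between genes that are high in maltose is partly fixed by that selection.

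Some of the 7 genes are direct neighbours in the RefSeq annotation of assembly ASM2700v1: PAS_chr4_0064 with THI5, and THI20 with thi4. Their annotated spans do not overlap. The strand setting of the counting is not given in the sources used here, and reads that run past the end of one neighbour into the other were not tested for. Of 30 other genes within 3 positions of any of the 7, only 2 are in the table, both beside TPN1. ARO8 (PAS_chr1-3_0154), with the symbol of an aromatic aminotransferase, is next to TPN1 and went the other way, from 84.2 ± 16.0 to 14.2 ± 1.17 FPKM (log2 -2.57, SE 0.21). PAS_chr1-3_0151, 2 genes from TPN1, had 4.65 ± 0.522 FPKM in BMMY and 14.2 ± 1.88 with maltose (log2 1.61, SE 0.19).

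The 7 genes together made up 1.90%, 1.51% and 1.22% of the implied depth in BMMY replicates 1, 2 and 3, and 4.89%, 5.11% and 5.34% with maltose. THI5, THI4 and PAS_chr4_0064 accounted for most of that in every library. Of the counts over all 115 listed genes, the 7 took 17.9% to 20.2% in BMMY and 32.8% to 35.0% with maltose.

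**Figure D5:**
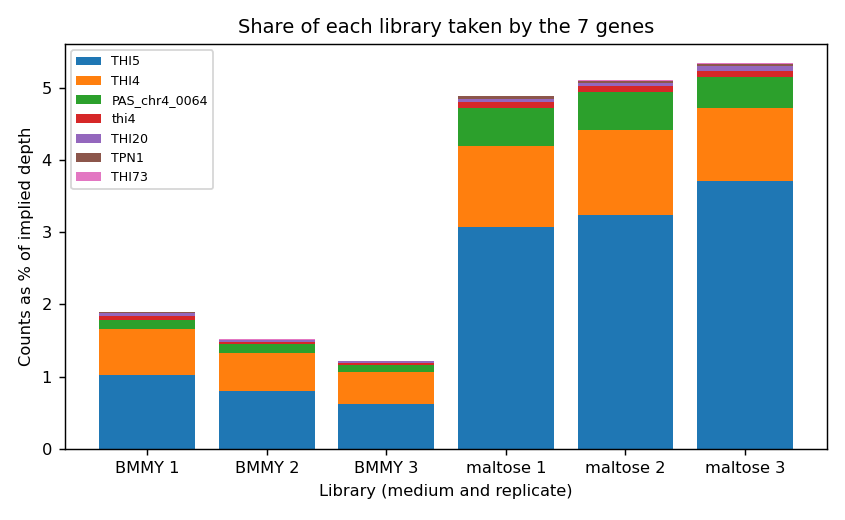
Counts of each of the 7 genes as a percentage of the implied depth of the library, stacked, for the 3 BMMY and 3 maltose libraries. The stacks reach 1.22% to 1.90% in BMMY and 4.89% to 5.34% with maltose, and THI5 is the largest part of each.

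Outside the 7, the table held 1 further gene of the list for thiamine synthesis, uptake and control. It was called higher, where 43.8% of all genes tested were called higher. PET18 (PAS_chr2-1_0189) is required for respiratory growth by its product line and carries the TENA/THI-4/PQQC domain family that, of the 115 genes, only THI20 shares with it. It had 245, 173 and 167 FPKM in BMMY replicates 1, 2 and 3, and 296, 287 and 337 FPKM with maltose. The groups did not overlap, with BMMY replicate 1 again highest in BMMY and maltose replicate 3 highest with maltose. Its log2 fold change was 0.65 (SE 0.21, adjusted p = 0.0186 in edgeR's quasi-likelihood test). Like every listed gene, PET18 had been selected by the authors as changed on these libraries, so this p is a description and not a fresh test. PET18 was not called with any 1 of 4 libraries left out, which were BMMY replicates 2 (0.57) and 3 (0.55) and maltose replicates 1 (0.68) and 3 (0.58). With TMM factors PET18 was at 0.18 and not called, and with equal FPKM sums it turned to -0.19.

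No gene of vitamin B6 synthesis or salvage was in the table beside TPN1. The table holds only genes the authors selected as changed, so the levels of absent genes are unknown here. Of enzymes that use thiamine diphosphate, 1 was listed, and it was called lower with maltose, where 50.0% of all genes tested were called lower. ARO10 (PAS_chr3_0095), a phenylpyruvate decarboxylase, had 70.5, 67.7 and 75.7 FPKM in BMMY and 17.0, 17.7 and 29.5 FPKM with maltose (log2 -1.73, SE 0.25, adjusted p = 3.85e-04 in edgeR's test). That p too is a description, since ARO10 had been selected as changed on these libraries.

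Of 6 listed enzymes that use pyridoxal phosphate, 4 were called lower, 1 higher and 1 was not called, where 50.0% of all genes tested were called lower. CAR2 (PAS_chr3_0410), ornithine transaminase, and ARO8 had the largest falls, 5.54-fold and 5.93-fold. MET17 (PAS_chr4_0330), which makes homocysteine from sulfide, and BNA5 (PAS_chr3_1194), kynureninase, were 4.28-fold and 2.88-fold lower. AGX1 (PAS_chr4_0416), which makes glycine from glyoxylate, was called higher at 0.67 on the log2 scale, but turned to -0.17 with equal FPKM sums, and was not called with TMM factors (0.20) or after leaving out BMMY replicate 2 (0.59) or 3 (0.56) or maltose replicate 1 (0.63). GLY1 (PAS_chr4_0112), threonine aldolase, another glycine-forming enzyme, had 606, 238 and 234 FPKM in BMMY and 548, 612 and 730 FPKM with maltose, so its groups overlapped through BMMY replicate 1. In edgeR's fit with implied depths and all libraries GLY1 was not called (log2 0.81, SE 0.38). Calls were also absent with TMM factors (0.41), equal FPKM sums (0.03), no filter (0.81) and a replicate block (0.97). GLY1 was called with DESeq2 (0.81), limma (0.95), the authors' scaling (1.17) and equal medians (1.59). Of the fits with 1 library left out, only that without BMMY replicate 1 called it (1.42).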

How the data were processed

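Transcripts were measured by RNA-seq in 3 BMMY and 3 maltose libraries, grouped by the sample labels. CASAVA, HISAT2 2.2.1 and StringTie are named per the submitters' processing notes, with no role or order. The genome build and strand setting are not stated in those notes. The authors deposited, for 115 genes they had selected, whole-number read counts and FPKM values per library, a p-value per gene whose test is not stated, and a log2 fold change, per the file headers. Every absolute deposited log2 fold change was at least 1.0.

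Implied depth was each count over the product of FPKM and RefSeq gene length, taken at its median across genes. Genes were tested with edgeR 4.0.16 (R 4.3.3) on counts, with implied depths as library sizes, group as the only term, a mean FPKM of at least 1, and Benjamini-Hochberg adjustment over 112 genes at 0.05. Standard errors are the log2 fold change over the square root of F. The procedure was tested on simulated data. The 7 genes, the gene lists and the named-gene rule (the 7, their 2 nearest profiles, listed neighbours within 3 genes, list members) were chosen with earlier results of these data known. Profiles used log2(FPKM + 1). A kinase of pyruvate dehydrogenase matched the thiamine diphosphate list by its product text and was dropped, since it does not use that cofactor. The authors' scaling was recovered from 92 genes with counts of at least 200, to within 0.0034 on the log2 scale. The sample titles give replicate numbers but state no pairing, so libraries were not paired in the main fit. Alternatives were 4 scalings, no filter, DESeq2 1.42.0, limma 3.58.1 with pseudocounts of 1 and 0.1, a replicate block, and each library left out.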

Additional observations from a re-analysis of the deposited data

How the results depend on the processing

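Scaling moved the values most. Equal medians, TMM factors and equal FPKM sums were computed over the listed genes alone, which had been selected as changed. The median log2 fold change of the 7 genes, 1.24 with implied depths, was 0.82 with TMM factors, 0.45 with equal FPKM sums, 2.0 with equal medians and 1.59 under the authors' scaling. Of 112 genes, 105 were called with implied depths, 69 with TMM factors and 63 with equal FPKM sums, where 3 of the 7 genes were called. PET18 turned to -0.19 and AGX1 to -0.17 with equal FPKM sums. Leaving out 1 library at a time gave medians from 1.02 to 1.77, 5 to 7 of the 7 genes called, and 85 to 112 calls in all. With the replicate block 105 genes and all 7 were called (median 1.34), and of the other genes named RIB3 lost its call. Deviations of same-numbered libraries correlated at -0.20, 0.00066 and 0.00027, which with 3 libraries a group cannot settle whether they were paired. With no filter 108 of 115 genes were called, with DESeq2 110 and with limma 112 at either pseudocount, and 7 of the 7 in each. Depth limits counting error only. With 3 libraries a group and 1 BMMY library apart, the sizes for THI20, THI73 and TPN1 are the least certain.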
